A study of Mus musculus with 9 samples.

Results

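The immediate early and Nr4a genes described here are 10 listed mouse genes, Fos, Fosb, Jun, Junb, Atf3, Egr1, Egr2, Nr4a1, Nr4a3 and Dusp1, out of 22180 genes measured in hindlimb skeletal muscle of young mice. They were chosen by symbol, all 10 were measured, and each was read by 1 probe set that carries its symbol alone. Muscle was taken at postnatal days 2, 7 and 14 (P2, P7 and P14), with 3 biological replicates and so 3 arrays at each age, 9 in all. The mice are labelled as of mixed strain, with no treatment named, and whether a replicate was 1 animal or a pool, and the hour of collection, were not stated in what was read here. Values are log2 intensities after RMA, a method that corrects background, scales arrays to each other and sums up the probes of a probe set. A difference of 1 on this scale is a 2-fold difference, and with 3 arrays an age the precision of each mean is limited.

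Immediate early genes are switched on within minutes of a signal such as a growth factor, nerve-driven contraction, a hormone or tissue stress, with no need for new protein. Their promoters are held ready by factors such as SRF, its ternary complex partners and CREB, which kinases activate. Fos, Fosb, Jun and Junb encode subunits of the AP-1 transcription factor, Atf3 is a stress-induced relative of them, Egr1 and Egr2 are zinc finger factors, and Dusp1 encodes a phosphatase that turns off MAP kinases. Nr4a1 (Nur77) and Nr4a3 (Nor1) are orphan nuclear receptors that in skeletal muscle are induced by contraction and by adrenergic signals and are known to act on genes of glucose and lipid use.

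The 10 genes did not move as a block. Nr4a1, Nr4a3 and Dusp1 were higher at P14 than at P7 on every array, Jun was higher at P14 than at P2, and the other 6 passed the test in no pair of ages. The promoters of those that rose are shown here because all 3 of the P14 against P7 group hold several copies of TGACG, the core of the cyclic AMP response element (CRE) that CREB binds. The sequences are from RefSeq on build GRCm38.p6, in the direction of transcription, and 9 of the 10 genes, all but Egr1, had a window. The Nr4a1 and Dusp1 runs are the 250 bases before the annotated start site. Those of Nr4a3, Jun and Fos are stretches of 30 bases. Fos is printed as well, though it passed the test in no pair of ages. Nr4a1 lies at chr15:101266596-101266845 (plus strand), Dusp1 at chr17:26508473-26508722 (minus strand), Nr4a3 at chr4:48045087-48045116 and chr4:48045148-48045177 (plus strand), Jun at chr4:95052241-95052270 (minus strand) and Fos at chr12:85473812-85473841 (plus strand). Capitals mark TGACG on either strand, with the longer matches TGCGTCA in Nr4a1 and TGACGTCA in Dusp1, and in Jun the element TGACATCA followed by a match to the MEF2 site.
Nr4a1: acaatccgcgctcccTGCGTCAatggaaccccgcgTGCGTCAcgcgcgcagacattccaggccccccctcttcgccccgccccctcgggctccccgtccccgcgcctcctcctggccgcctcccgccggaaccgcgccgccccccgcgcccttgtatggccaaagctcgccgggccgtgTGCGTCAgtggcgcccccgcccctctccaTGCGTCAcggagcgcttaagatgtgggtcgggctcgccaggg
Dusp1: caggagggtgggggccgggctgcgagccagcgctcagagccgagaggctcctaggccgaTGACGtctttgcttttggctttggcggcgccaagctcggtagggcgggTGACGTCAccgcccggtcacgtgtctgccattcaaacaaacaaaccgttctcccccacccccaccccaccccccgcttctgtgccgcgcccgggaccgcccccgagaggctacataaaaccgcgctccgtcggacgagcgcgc
Nr4a3, first stretch: catgtCGTCAcatTGACGtctcgcattcca
Nr4a3, second stretch: gtggcataaaTGACGtgccgagagagcgag
Jun: gggTGACATCAtgggCTATTTTTAGggatt
Fos: agttccgcccagTGACGtaggaagtccatc

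Counted on both strands of the 250 bases before the start, the CRE core TGACG was found 4 times in Nr4a1, 4 times in Nr4a3 and 3 times in Dusp1. Of all 32851 RefSeq windows of that length, 17.8% held at least 1 core, 0.688% at least 3 and 0.137% at least 4. The thresholds of 3 and 4 match the counts of these 3 genes, so the shares are a description and no test. The share with at least 2 was not counted. In Nr4a1 each of the 4 lies inside the element TGCGTCA, whose reverse strand holds the core. That element was searched for after the sequence had been read, 1.75% of windows held at least 1 copy, and Nr4a1 was the only 1 of the 32851 with 4. The window of Fosb, which was called in no pair of ages, held 1 copy. In Dusp1, 2 of the 3 cores overlap as the palindrome TGACGTCA, the full CRE, which 1.55% of windows held. The core was not particular to the genes that rose. Fos held 2, 3 of the 5 Egr2 windows held 2, and Fosb, Junb and Atf3 held 1 each, while the Jun window held none. Jun instead held TGACATCA (2.93% of windows) and a MEF2 site match (0.508% of windows), a binding site of factors prominent in muscle, and the window of Atf3, which was called in no pair of ages, held a MEF2 site match as well. The Nr4a1 binding element AAAGGTCA and the AP-1 element TGANTCA were not among the letters of these members' windows, against 1.34% and 6.75% of all windows. A CArG box, the site of SRF, was found in 4 of the Egr2 windows, 3 of which overlap each other, against 1.47% of all windows. Egr1 had no window and bases farther than 250 from the start were not searched, so sites there are not counted. RefSeq places another start of Nr4a3 inside its window. A match is a stretch of letters and no evidence that a factor binds there.

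**Figure D1:**
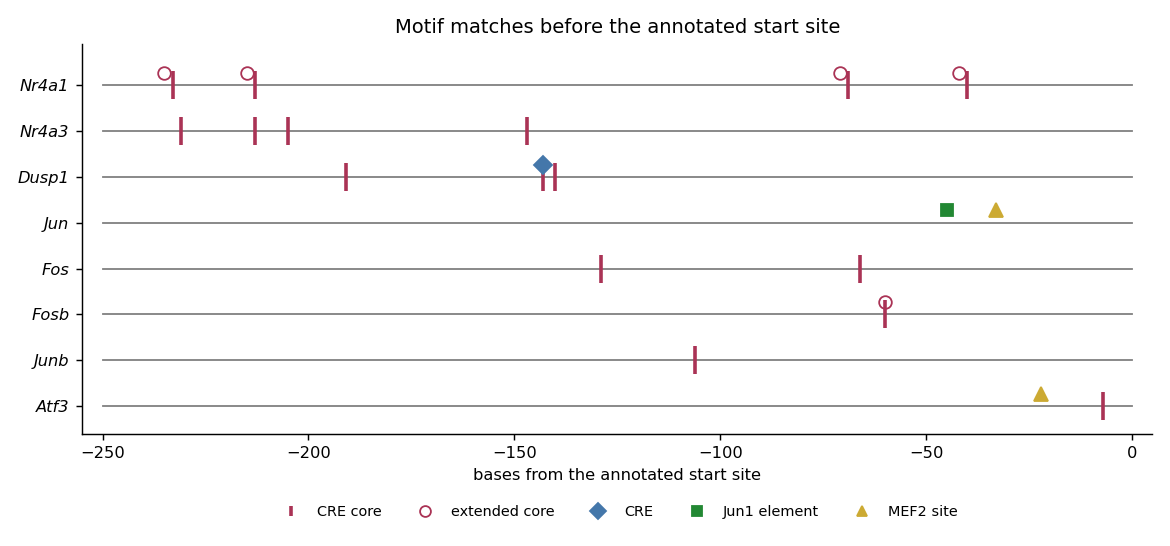
Positions of motif matches in the 250 bases before the annotated start site of 8 of the 10 genes, with distance in bases on the horizontal axis and each symbol at the first base of a match (extended core, TGCGTCA; Jun1 element, TGACATCA). Nr4a1 and Nr4a3 have 4 cores each and Dusp1 has 3, against 2 in Fos and 1 in Fosb, Junb and Atf3; Egr2, with 5 windows, is not drawn.

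The nuclear receptor Nr4a1 had values of 5.73, 5.60 and 5.83 at P2, 5.86, 5.48 and 6.03 at P7, and 7.86, 7.87 and 7.63 at P14. The 3 P14 arrays lie far above the other 6, and the P2 and P7 arrays overlap. Its mean was 7.79 ± 0.14 at P14 and 5.79 ± 0.28 at P7 (SD, n = 3 each), a log2 change of 2.00 ± 0.18 (SE) or 4.0-fold (limma adjusted p = 1.80e-05 over all genes). In bulk tissue, more cells that express a gene and more RNA per cell cannot be told apart. Between P7 and P2 its change was 0.07 ± 0.18, with a 95% interval of -0.32 to 0.46.

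The change of Nr4a1 in the second interval exceeded that in the first by 1.93 ± 0.31 on the log2 scale, with an adjusted p of 0.0176 in limma's test of that difference. It was the 1 member for which this test passed, against 0.194% of all genes in either direction. The call rests on few arrays. Without P7 replicate 1 the adjusted p was 0.0780, without P7 replicate 2 it was 0.147 (difference 1.62) and without P14 replicate 2 it was 0.0686. The same difference was 1.26 ± 0.30 for Dusp1 (adjusted p = 0.162), so it was not shown to change more in 1 interval than in the other. For Nr4a3, whose values at P2 and P7 were at background, the difference cannot be read.

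The related receptor Nr4a3 had values of 3.01, 2.77 and 3.31 at P2, 3.40, 3.0 and 3.25 at P7, and 4.38, 4.71 and 4.35 at P14. All 3 P14 arrays lie above the other 6. The array gives no detection call, so background was read from 1143 smell and taste receptor genes, whose means over the 9 arrays had a 95th percentile of 3.22. The Nr4a3 means of 3.03 ± 0.27 at P2 and 3.22 ± 0.20 at P7 (SD, n = 3 each) were at or under that level and only the P14 mean of 4.48 ± 0.20 was above it. Its log2 change from P7 to P14 was 1.26 ± 0.19 (SE, adjusted p = 0.00211), and no fold is given because the value at the earlier ages may be background, which also leaves its change between P2 and P7 unmeasured. Nr4a2, the third gene of the family, is not on the list of 10. It had 5.13 ± 0.16 at P14 and 4.08 ± 0.60 at P2, a log2 change of 1.05 (adjusted p = 0.0144; 0.0651 without P14 replicate 3, and also lost without P14 replicate 1). From P7 to P14 its change of 0.88 ± 0.25 was not called (adjusted p = 0.0891).

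Dusp1, the phosphatase that removes phosphate from p38, JNK and ERK kinases, had values of 6.02, 5.94 and 6.14 at P2, 5.98, 6.38 and 6.09 at P7, and 7.46, 7.43 and 7.70 at P14. The lowest P14 array is more than 1 unit above the highest of the others. The change from P7 to P14 was 1.38 ± 0.17 (2.60-fold, adjusted p = 0.000339), and from P2 to P7 it was 0.12 ± 0.17 with an interval of -0.25 to 0.48. Of the 9 other dual specificity phosphatases listed beside it, limma called 0 between P14 and P7 (1 at an unadjusted p under 0.05), with a median log2 change of 0.22. In that interval 1.72% of all genes were called higher and 0.703% lower, so 0 of 9 does not set them apart. Between P14 and P2 limma called 2 of the 9, against 6.63% of all genes higher and 4.40% lower. They were Dusp8 (0.81, adjusted p = 0.0106, and 0.0540 without P14 replicate 1) and Dusp10 (0.67, adjusted p = 0.0313). The Dusp10 call was lost without any P14 array or P2 replicate 1 or 3 (up to 0.137, without P14 replicate 3).

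**Figure D2:**
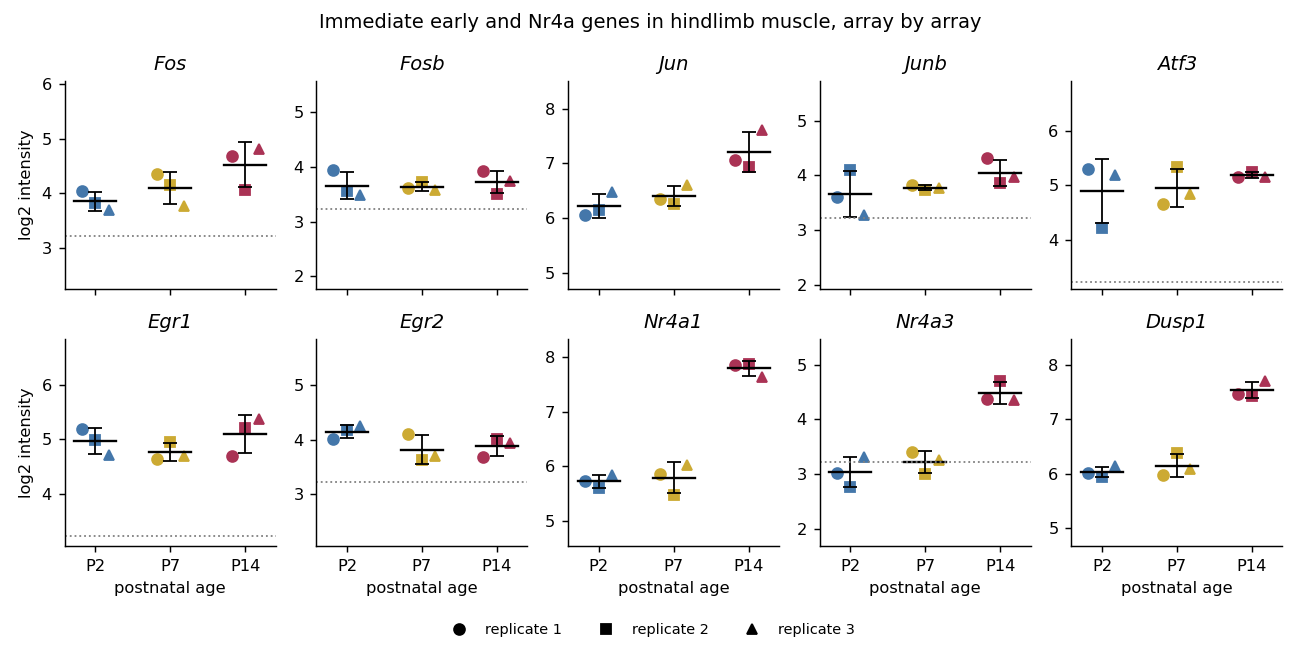
Log2 intensity (vertical axis, spanning the same range in every panel) of the 10 genes at P2, P7 and P14; symbols are the 3 replicates, black lines and bars the mean and SD, and the dotted line the background level of 3.22 where it falls in the panel. Nr4a1, Nr4a3 and Dusp1 have all 3 P14 arrays well above the rest, and Nr4a3 sits around the background level at P2 and P7.

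Jun, the partner with which Fos proteins form AP-1, had values of 6.05, 6.14 and 6.47 at P2, 6.34, 6.25 and 6.61 at P7, and 7.06, 6.93 and 7.62 at P14. The P14 arrays lie above all others, and P14 replicate 3 stands highest. Jun was 1.98-fold higher at P14 than at P2 (log2 0.98 ± 0.21, adjusted p = 0.00694). From P7 to P14 the change was 0.81 ± 0.21 with an interval of 0.36 to 1.25, and it narrowly missed the threshold over all genes (adjusted p = 0.0582). It passed in 6 of 17 alternatives, among them without P2 replicate 3 (adjusted p = 0.0485), with array weights (0.0239) and with only genes above the median tested (0.0289).

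Fos itself had values of 4.04, 3.82 and 3.70 at P2, 4.35, 4.16 and 3.77 at P7, and 4.69, 4.06 and 4.82 at P14. The P14 and P7 arrays overlap, because P14 replicate 2 is below P7 replicates 1 and 2, whereas the P14 arrays all lie above those of P2. Neither the change from P7 to P14 (0.43 ± 0.22, adjusted p = 0.404) nor that from P2 to P14 (0.67 ± 0.22, adjusted p = 0.0666) was called. The second was 0.90 with an adjusted p of 0.0254 without P14 replicate 2, and passed with only genes above the median tested (adjusted p = 0.0371).

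Fosb, whose stable splice form builds up in nerve cells with repeated stimulation, had values of 3.94, 3.56 and 3.48 at P2, 3.61, 3.73 and 3.57 at P7, and 3.92, 3.51 and 3.75 at P14. The 3 ages overlap throughout, close to the background level. Junb, which in muscle is known to help keep fibre size, had 3.61, 4.10 and 3.27 at P2, 3.82, 3.74 and 3.77 at P7, and 4.32, 3.87 and 3.97 at P14. Its P14 arrays lie above those of P7, but by a log2 change of only 0.27 ± 0.21 (adjusted p = 0.623), and they overlap with P2.

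Atf3, a repressor induced by cell stress, had values of 5.29, 4.21 and 5.18 at P2, 4.66, 5.34 and 4.85 at P7, and 5.16, 5.24 and 5.16 at P14. The ages overlap, and P2 replicate 2 stands lowest of the 9 arrays. The spread between its arrays was the widest of the members at P2 (SD 0.59) and the narrowest at P14 (SD 0.05). The change from P7 to P14 was 0.24 ± 0.26 (interval -0.31 to 0.79).

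Egr1, an early target of growth factor signals, had values of 5.19, 4.98 and 4.72 at P2, 4.65, 4.95 and 4.70 at P7, and 4.70, 5.21 and 5.38 at P14. Egr2, best known for driving myelin genes in Schwann cells, had 4.01, 4.18 and 4.25 at P2, 4.11, 3.63 and 3.71 at P7, and 3.68, 4.02 and 3.94 at P14. For both genes every pair of ages overlaps. Their changes from P7 to P14 were 0.33 ± 0.20 for Egr1 (interval -0.11 to 0.77) and 0.06 ± 0.18 for Egr2 (interval -0.33 to 0.45).

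The 95% intervals for the change from P7 to P14 are set side by side here as a description. They are per gene and not adjusted, and no difference between genes was tested. Nr4a3 is left out because its P7 value is at background. Signal near background also limits Fosb, Junb and Egr2, so their bounds may understate a change. The lower bounds were 1.61 for Nr4a1 and 1.01 for Dusp1. The upper bounds were 0.45 for Egr2, 0.47 for Fosb, 0.72 for Junb, 0.77 for Egr1, 0.79 for Atf3, 0.90 for Fos and 1.25 for Jun. The interval of Dusp1 therefore overlaps only that of Jun among these 7, and that of Nr4a1 overlaps none of them. For the genes not called, changes up to these upper bounds are within the intervals.

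**Figure D3:**
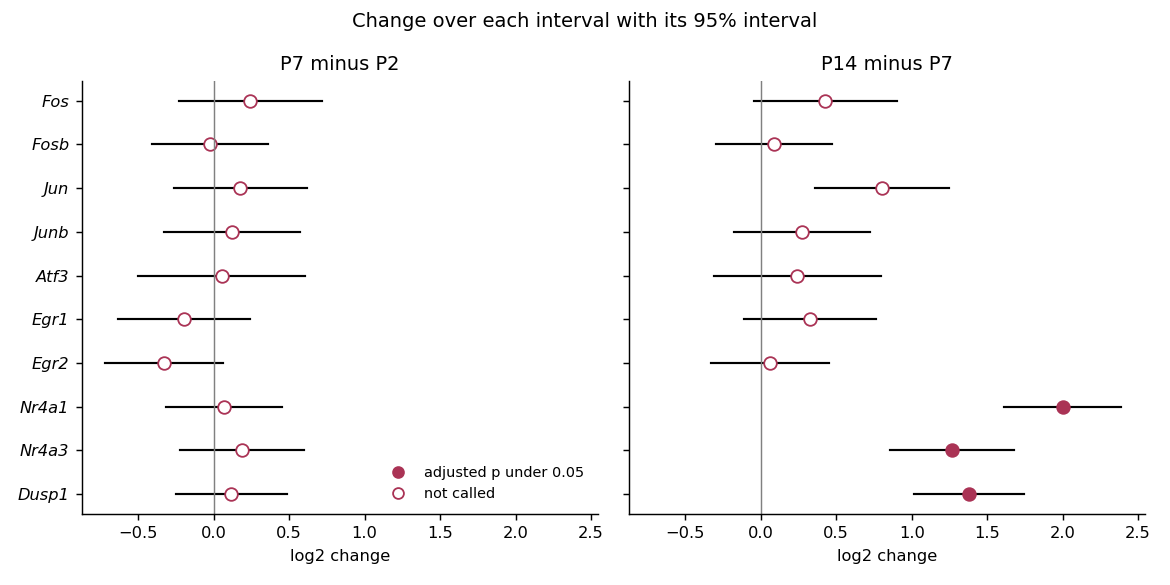
Log2 change (horizontal axis) of each gene from P2 to P7 (left) and from P7 to P14 (right); circles are the fitted change, bars its 95% interval, and filled circles passed an adjusted p of 0.05. No gene is filled on the left, and Nr4a1, Nr4a3 and Dusp1 are filled on the right; the values of Nr4a3 at P2 and P7 were at background, so its changes are taken against that level.

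Over the 10 genes, limma called 3 higher and 0 lower at P14 than at P7 (4 at an unadjusted p under 0.05), where 1.72% of all genes were called higher and 0.703% lower. All 10 had a positive change, with a median log2 of 0.38 beside 0.02 for all genes. In 5 of the 10 (Jun, Junb, Nr4a1, Nr4a3 and Dusp1) the 3 P14 arrays lay above the 3 P7 arrays, as they did for 14.8% of all genes. Between P14 and P2, 4 were called higher and 0 lower, against 6.63% and 4.40% of all genes, and 5 had all P14 arrays above all P2 arrays, against 16.2%. Between P7 and P2, 0 of 10 were called by limma and 0 passed at an unadjusted p under 0.05, where 0.185% of all genes were called higher and 0.144% lower. None had all P7 arrays above all P2 arrays, which held for 7.30% of all genes. The comparisons share arrays, so their counts are not independent. The calls of Nr4a1, Nr4a3 and Dusp1 from P7 to P14 were kept with any of the 9 arrays left out, with largest adjusted p of 0.000349, 0.0205 and 0.00445.

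Within an age the genes did not rank the arrays alike. At P14, replicate 2 was the lowest of the 3 arrays for Fos, Fosb, Jun, Junb and Dusp1, and the highest for Nr4a1, Nr4a3, Egr2 and Atf3. Replicate 3 was the highest for Fos, Jun, Egr1 and Dusp1 and the lowest for Nr4a1, Nr4a3 and Atf3. For Atf3 replicates 1 and 3 were nearly tied, at -0.026 and -0.029 from the mean of the age. The 4 AP-1 genes thus shared their lowest P14 array, but not at the other ages. On P2 replicate 3 Fos, Fosb and Junb were lowest while Jun was highest, and on P7 replicate 3 Fos and Fosb were lowest while Jun was highest. Nr4a1 and Nr4a3 shared both their highest and their lowest P14 array, but by small differences. For Nr4a1 replicates 1 and 2 were 0.072 and 0.084 above the mean, and for Nr4a3 replicates 1 and 3 were at -0.097 and -0.134. At P2 and P7 the order of the Nr4a3 arrays is at background and cannot be read. At P2 Nr4a1 and Dusp1 were both lowest in replicate 2 and highest in replicate 3, while at P7 replicate 2 was the lowest for Nr4a1 and the highest for Dusp1. The median deviation over the 10 genes was between -0.08 and 0.10 on every array, so no array was high or low for the list as a whole.

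**Figure D4:**
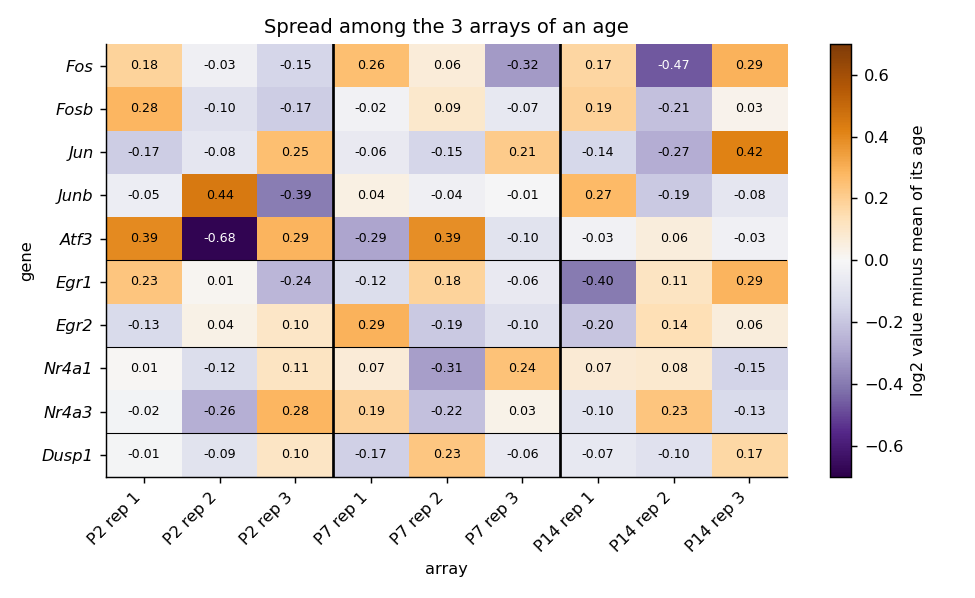
Log2 value of each gene (rows) on each array (columns) minus the mean of its age, so that rows show the spread among replicates only. P14 replicate 2 is negative for all 4 AP-1 genes (-0.47 for Fos) and positive for both Nr4a genes, and the largest deviation is -0.68 for Atf3 on P2 replicate 2.

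The other immediate early genes were taken from a list of 40, of which 38 were measured. Between P14 and P7, 3 rose and 0 fell, against 1.72% and 0.703% of all genes, with a median log2 change of 0.24. The number of rises was 5 without P2 replicate 2, 2 without P14 replicate 1, and up to 6 in the other alternatives. Gadd45g, a growth arrest gene, had 5.97, 5.94 and 5.91 at P14 and 4.07, 3.97 and 3.69 at P7, a log2 change of 2.03 ± 0.20 (adjusted p = 3.61e-05). Like Nr4a1 it passed the test of a difference between the intervals (adjusted p = 0.00800; 0.0781 without P7 replicate 3, and also lost without P7 replicate 2). The period gene Per1, which belongs to the circadian clock and is also induced by signals, had 7.12, 7.16 and 7.19 at P14 and 5.71, 5.30 and 5.91 at P7 (log2 1.52 ± 0.18, adjusted p = 0.000204). It too passed the test between the intervals (adjusted p = 0.0394), but not with any 1 of the 9 arrays left out (up to 0.206, without P7 replicate 2). Ccn2, a matrix-associated growth factor, rose by 0.80 ± 0.16 (adjusted p = 0.0129), but lost the call without any P14 array or P7 replicate 3 (up to 0.0758, without P14 replicate 3) and with the mean of all its probe sets (0.190).

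Between P14 and P2 the list had 9 rises and 2 falls, against 6.63% and 4.40% of all genes. The number of rises was 3 without P14 replicate 3. Among the paralogs of the members, Fosl2, an AP-1 subunit, was higher at P14 than at P2 by 0.71 (adjusted p = 0.0215; 0.119 without P14 replicate 1, and also lost without P14 replicate 3 or P2 replicate 2). Jund, Egr3 and Egr4 were called in no pair of ages, with P14 minus P7 changes of -0.17, 0.01 and -0.06. Between P7 and P2, 1 of the 38 rose, against 0.185% of all genes, the clock repressor Bhlhe40 (0.88, adjusted p = 0.0490). Its call was lost without 7 of the 9 arrays (up to 0.147, without P2 replicate 1). It was also lost in 4 other alternatives, array weights, the mean of all probe sets, only the 6 arrays compared and the replicate block (up to 0.184).

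Of 22 measured upstream factors, among them SRF, CREB and the MAP kinases, limma called 0 between P14 and P7 (2 at an unadjusted p under 0.05), with changes of -0.21 to 0.43. In that interval 1.72% of all genes were called higher and 0.703% lower, so 0 of 22 does not set these factors apart. Between P14 and P2 limma called 1 of the 22, against 6.63% of all genes higher and 4.40% lower. It was Mrtfb, an SRF coactivator (1.0, adjusted p = 0.00300, and 0.116 with the mean of all probe sets). The count was 3 without P2 replicate 3. Of 13 partners and corepressors 2 rose from P7 to P14, against 1.72% of all genes. Cebpb, a leucine zipper factor that also acts in stress and hormone responses, changed by 0.90 ± 0.18 (adjusted p = 0.0182; up to 0.116, without P14 replicate 2, and also lost without P14 replicate 1 or P7 replicate 1 or 3). Rxrg, a retinoid receptor that can pair with Nr4a1, changed by 0.82 ± 0.20 (adjusted p = 0.0441; up to 0.192, without P14 replicate 2, and also lost without P14 replicate 1 or 3 or P7 replicate 1 or 2). The Cebpb mean of 3.42 at P7 was close to the background level of 3.22, so its change may be understated. The count of 2 rises was 0 without P14 replicate 1.

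A list of 16 genes of muscle fuel use holds several that are known to respond to Nr4a1 in rodent muscle, and 15 were measured. From P7 to P14, 7 rose and 1 fell, against 1.72% and 0.703% of all genes, with a median of 0.81. The number of rises was 3 without P14 replicate 2 and 10 without P2 replicate 1. Phka1, a subunit of the kinase that activates glycogen breakdown, had 8.55, 8.59 and 8.31 at P14 and 6.33, 6.38 and 6.32 at P7 (log2 2.14 ± 0.21, adjusted p = 3.25e-05). Hexokinase 2 (Hk2) rose by 1.38 ± 0.20 (adjusted p = 0.00171) and Lpin1, a phosphatidate phosphatase, by 1.32 ± 0.20 (adjusted p = 0.00174). Ppargc1a, a coactivator of mitochondrial genes, rose by 0.86 ± 0.19 (adjusted p = 0.0274; up to 0.154, without P14 replicate 2, and also lost without P14 replicate 3 or any P7 array). The member that fell, a gene named after its value was seen, was Fbp2, an enzyme of glucose synthesis, at -0.72 (adjusted p = 0.0360; the count of falls was 0 without P14 replicate 1). Whether Nr4a1 had a part in any of these changes was not tested.

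Dusp1 and Per1 also respond to glucocorticoid hormone, and a list of genes known for that response was set beside Dusp1. The list holds Per1 itself, which was already counted among the other immediate early genes. Of 14 measured, 7 rose, Per1 among them, and 0 fell from P7 to P14, against 1.72% and 0.703% of all genes, with a median of 0.78. The number of rises was 2 without P14 replicate 1. Sgk1, a kinase, had 6.31, 6.10 and 6.14 at P14 and 4.99, 4.86 and 4.72 at P7 (log2 1.33 ± 0.16, adjusted p = 0.000272). The Krüppel-like factors Klf9 and Klf15 rose by 1.19 ± 0.24 (adjusted p = 0.0181; up to 0.104, without P14 replicate 3, and also lost without P14 replicate 1 or 2 or P7 replicate 1 or 3) and 0.99 ± 0.19 (adjusted p = 0.0129; up to 0.0805, without P14 replicate 1, and also lost without P14 replicate 2 or P7 replicate 1 or 2). The Klf15 mean of 3.34 at P7 was close to the background level of 3.22, so its change may be understated. Between P14 and P2, 9 rose, again with Per1 among them, and 3 fell, against 6.63% and 4.40% of all genes. The 3 were Mt1, Mt2 and Cdkn1a, named after their values were seen. Without P14 replicate 3 the counts were 5 and 1. A part of hormone or of the hour of collection in the members' changes was not tested.

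Signs of cell stress were also measured, since handling of tissue can induce these genes. From P7 to P14, 1 of 10 heat shock genes rose, Hsph1 (0.91 ± 0.21, adjusted p = 0.0367; up to 0.155, without P14 replicate 1, and lost without any P14 or P7 array), and the list's median was 0.25. At P14 against P2, 2 of the 10 rose, where 6.63% of all genes were called higher and 4.40% lower. They were the inducible chaperone Hspa1a (1.37, adjusted p = 0.00464, kept with each of the 9 arrays left out) and the co-chaperone Bag3 (0.72, adjusted p = 0.0149). The Bag3 call was lost without P14 replicate 2 (0.0664), P14 replicate 3 or P2 replicate 1. The Hspa1a means of 2.345 at P2 and 3.043 at P7 were under the background level of 3.22. Only its P14 mean of 3.714 was above that level, so the size of its change cannot be read. Of 14 genes of the integrated stress response 2 rose from P7 to P14, Cebpb and Chac1, a glutathione-degrading enzyme (1.10 ± 0.22, adjusted p = 0.0137; up to 0.0814, without P14 replicate 1, and also lost without P14 replicate 3 or P7 replicate 2 or 3), with a median of 0.19. Cebpb and Chac1 had P7 means of 3.42 and 3.75, close to background, so their changes may be understated. The heat shock and integrated stress lists both had 0 rises in that interval without P14 replicate 1. In the reported fit, 1.72% of all genes were called higher in that interval and 0.703% lower. At P14 against P2 the integrated stress list had 2 rises and 3 falls, against 6.63% and 4.40% of all genes. The part of handling in the members' changes was not tested.

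**Figure D5:**
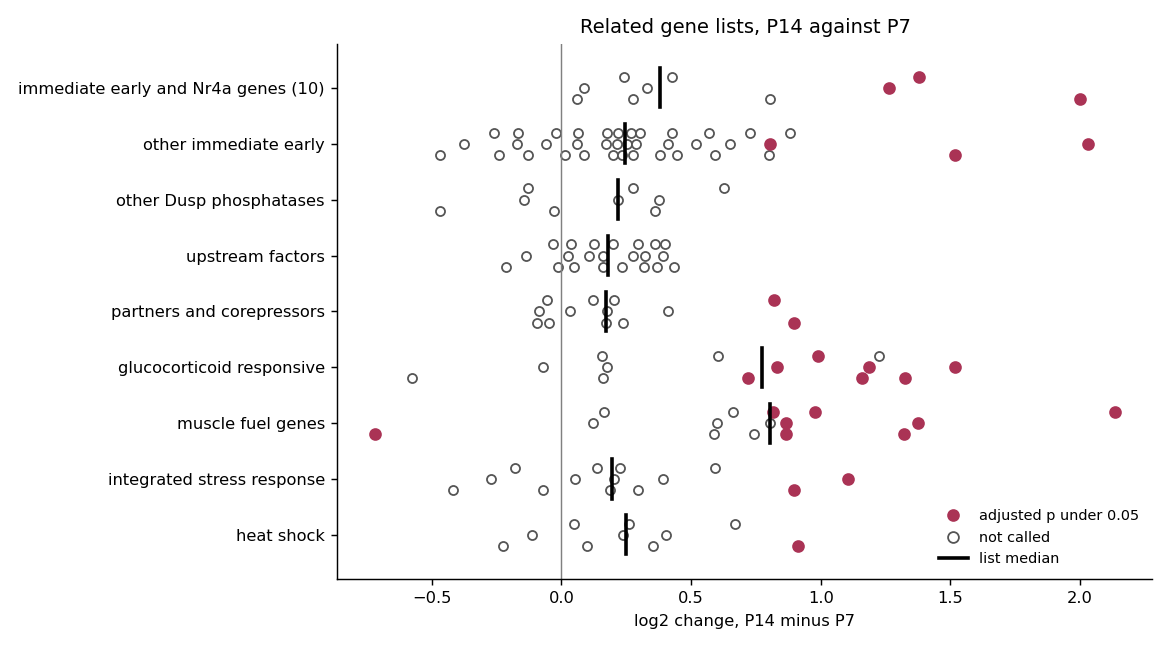
Log2 change from P7 to P14 (horizontal axis) for every measured gene of each list (rows); filled circles passed an adjusted p of 0.05, open circles did not, and black ticks are list medians. The medians are 0.38 for the 10 genes, 0.24 for other immediate early genes, 0.78 for the glucocorticoid-responsive genes and 0.81 for the muscle fuel genes.

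The labelled tissue was checked by 10 skeletal muscle markers, none of which was under background on all arrays; creatine kinase Ckm, for example, had 10.2 ± 0.40 at P2, 10.7 ± 0.10 at P7 and 11.2 ± 0.05 at P14 (SD, n = 3 each). Between P14 and P7, 1 of the 10 was called, the perinatal myosin Myh8, which fell. The summed linear intensity of the 10 was higher at P14, 21380 to 21990 against 18250 to 19950 at P7, with no overlap. In 8 of the 10 all P14 arrays lay above all P7 arrays, against 14.8% of all genes. Of 74 markers of 9 other cell groups limma called 0 between P14 and P7 (17 at an unadjusted p under 0.05), the interval in which Nr4a1, Nr4a3 and Dusp1 rose. In that interval 1.72% of all genes were called higher and 0.703% lower. The summed levels of some lists still did not overlap between these ages. The summed linear intensity of the 10 pericyte and smooth muscle markers was 2291 to 2557 at P14 and 1628 to 1632 at P7, with no overlap. Of these 10, 5 had all P14 arrays above all P7 arrays, against 14.8% of all genes. Their changes were mixed, from -0.33 to 0.76, with 7 of 10 positive. The sum is carried by the brightest of them, Rgs5, Acta2 and Abcc9 (means of 9.84, 9.57 and 8.82 at P14). The sum of the 10 neutrophil markers was 64.6 to 75.5 at P14 and 98.3 to 134 at P7, also with no overlap. For the 2 measured red cell markers the sum was 17.9 to 23.3 at P14 and 37.7 to 70.6 at P7, again with no overlap. Of the same 74, 15 were called between P14 and P2, where 6.63% of all genes were called higher and 4.40% lower. Among pericyte and smooth muscle markers 4 of 10 rose, with sums of 2291 to 2557 at P14 and 1098 to 1374 at P2. The changes of these 10 ran from -0.48 to 1.98, with 6 of 10 positive, so the list did not rise as a whole. Among endothelial markers 2 of 10 rose (1 without P14 replicate 1 and 5 without P2 replicate 3), with sums of 865 to 960 at P14 and 526 to 835 at P2. Among neutrophil markers 3 of 10 fell (1 without P14 replicate 1 and 8 without P2 replicate 2), with sums of 64.6 to 75.5 at P14 and 76.5 to 265 at P2. Among satellite cell and myoblast markers 3 of 10 fell (1 without P14 replicate 1 and 4 without P2 replicate 2). They were Myf5 (-1.12, limma adjusted p = 0.00415, kept with each of the 9 arrays left out), Vcam1 and Cdh15. Their list had sums of 384 to 439 at P14 and 432 to 543 at P2, which overlap. Of fibroblast and red cell markers 1 each fell, and 1 skin marker rose. The part of cell makeup in the rises of Nr4a1, Nr4a3, Dusp1 and Jun was not tested.

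The genes whose values over the 9 arrays were most like those of each called member were named by Pearson correlation among 13387 genes above background in at least 1 age, as a description in which the difference between ages carries most of the likeness. For Nr4a1 they were Slc25a33, a mitochondrial carrier (r = 0.992), the ubiquitin ligase Marchf6 (0.990) and Ttc19, a factor for respiratory complex III (0.987). For Nr4a3 they were Phkb, another subunit of phosphorylase kinase (0.990), Lurap1 (0.988) and the chemokine Cxcl14 (0.986). For Dusp1 they were the ubiquitin ligase Wwp1 (0.993), Alas1, which starts haem synthesis (0.990), and Lrrc39, an M-band protein (0.987). For Jun they were Btnl2 (0.959), the actin-severing protein gelsolin (Gsn, 0.951) and the precursor signal of Mir1904 (0.951). Slc25a33 averaged 4.04 at P2, 3.99 at P7 and 5.24 at P14, and Wwp1 averaged 7.54 at P2, 7.71 at P7 and 8.74 at P14.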

How the data were processed

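The authors deposited 1 log2 intensity per probe set and array for 41345 probe sets; RMA and Partek appear, without versions, per the submitters' processing notes, and the log2 base is taken from RMA. Biotinylated cRNA was made from 6 ug of total RNA, per the labels' protocols. Array medians were 3.29 to 3.36. Probe sets with 1 symbol (23521) were used, 1814 with several and 16010 unlisted were left out, and symbols were updated by Entrez number through RefSeq (23328 matched). The brightest probe set of each gene was kept (22180 genes). No filter on dim genes was used.

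Using limma 3.58.1 (R 4.3.3), a model with a mean for each age was fitted to all 9 arrays, two-sided, and adjusted by Benjamini-Hochberg over all 22180 genes; called means an adjusted p under 0.05. Errors are standard errors or SDs as stated. Whether replicates were separate animals is unstated, so p-values reflect only the differences among these arrays, some perhaps technical. The fit was tested on simulated data. Alternatives were scaling, a filter, probe set choice, the spread model, array weights, the arrays fitted, a replicate block and leaving out each array.

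Members, lists and tests were chosen with earlier results of these data known. Named genes are the members, their paralogs with a probe set of their own, up to 4 called genes per list and pair of ages with the smallest adjusted p, and the 3 genes most like each called member. Fosl1 was read only by a probe set with several symbols and is not analysed here. Scan batches were not stated in what was read here.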

Additional observations from a re-analysis of the deposited data

Results flagged for a closer look

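Nr4a1 was the 1 gene of the 10 whose change differed between the intervals by a test of that difference: the change from P7 to P14 exceeded that from P2 to P7 by 1.93 on the log2 scale (adjusted p = 0.0176, lost without P7 replicate 1, P7 replicate 2 or P14 replicate 2, up to 0.147). The intervals last 7 and 5 days, so they are not equal in length.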

How the results depend on the processing

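The number of the 10 genes called between P14 and P7 was 3 to 4 and between P14 and P2 4 to 5 in every alternative run, and 0 between P7 and P2. The calls of Nr4a1, Nr4a3 and Dusp1 for P14 against P7 and against P2, and that of Jun for P14 against P2, were kept in all 17 alternatives. Counts over all genes moved more. For P7 against P2 they were 73 in the reported fit, 184 with only genes above the median tested, 159 with an intensity trend, 12 with only the 6 arrays compared, and 11 (without P7 replicate 3) to 206 (without P2 replicate 2) with 1 array left out. For P14 against P7 they were 538, 1221 with array weights, 871 with the filter, 1051 with only the 6 arrays compared, and 214 (without P14 replicate 2) to 794 (without P2 replicate 2) with 1 array left out. For P14 against P2 they were 2447, and 1373 to 2611 without P14 replicate 2 or P2 replicate 2. The cause was not tested.

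Same-numbered replicates of different ages did not deviate together (9 pairs, r of -0.03 to 0.06), so they share only a number. With it as a block (replicate block), P14 against P7 gave 458 genes and Jun was called there (adjusted p = 0.0301); the block changed no other call of the 10 genes. Small uncalled changes turned sign. Egr2 for P14 against P7 was -0.005 with cyclic loess and Atf3 for P7 against P2 -0.067 with array weights. With 1 array left out, ranges that crossed 0 were -0.11 to 0.12 for Fosb, -0.076 to 0.34 for Junb, -0.053 to 0.22 for Nr4a1 and -0.29 to 0.25 for Atf3 (P7 against P2); -0.006 to 0.20 for Fosb and -0.034 to 0.21 for Egr2 (P14 against P7); -0.028 to 0.21 for Fosb, -0.01 to 0.33 for Egr1 and -0.048 to 0.49 for Atf3 (P14 against P2); and -0.14 to 0.44 for Fos, -0.029 to 0.22 for Fosb, -0.068 to 0.35 for Junb and -0.10 to 0.58 for Atf3 (difference between the intervals). Signal near background limits Nr4a3 at P2 and P7, Fos at P2, and Fosb, Junb and Egr2 at all ages.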
